A study of Mus musculus with 6 samples.

Results

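The ADAM and ADAMTS genes encode a family of metalloproteinases and their relatives without protease activity. Members were taken as every gene in the deposited table whose symbol begins with Adam and a digit or with Adamts, which also takes in the ADAMTS-like genes. That gave 57 of 34745 genes, and 35 of them had 10 or more counts summed over the 6 libraries. At that limit Adam21 was just inside with 11 counts, and Adam5 and Adam32 were just outside with 8 each. Of the 57, 29 passed the filter on low counts and were tested, and 16 had no count in any library. RNA came from mouse LSECs, liver sinusoidal endothelial cells, whose perforated sheets line the blood channels of the liver. There were 3 libraries from Tgfbr2f/f mice (f/f below, titled WT) and 3 from littermates labelled Tgfbr2 ECKO, an endothelial-specific knockout of the type II TGF-beta receptor. Mice of both genotypes were given carbon tetrachloride (CCl4), a liver toxin that leads to fibrosis, by injection into the peritoneum 2 times a week for 6 weeks. No group without CCl4 was analysed here. The Cre line, the deleted exons, the age of the mice and the cell isolation were not stated in the labels used here, and the libraries are not tied to single animals, so the p-values describe the spread between libraries, which may be technical.

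ADAMs are membrane proteins that cut the outer part off other membrane proteins, a step called shedding, which frees growth factors and cytokines and starts Notch signalling. ADAMTS proteases are secreted, bind matrix through thrombospondin repeats, and trim procollagens, proteoglycans, fibrillin-associated proteins and von Willebrand factor. ADAMTS-like proteins keep the matrix-binding part and lack the protease domain. In liver, ADAM12 is known as a protease of activated stellate cells, the collagen-producing pericytes of the sinusoid, and stellate cells are a known source of the von Willebrand factor protease ADAMTS13.

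Library totals ran from 17171850 to 25062755 counts. Levels below are CPM, counts scaled to library size with TMM, a correction for library composition, unless named as FPKM, the authors' values scaled for gene length and library total. The log2 fold change of ECKO over f/f is written log2FC. Tgfbr2 itself stood at 387, 442 and 452 CPM in f/f and at 498, 487 and 511 CPM in the libraries labelled ECKO, so it was not lower there (log2FC 0.22, SE 0.10, edgeR adjusted p = 0.228). Which part of the gene was deleted is not stated, so this level cannot check the deletion. All directions given here refer to libraries by that label. The libraries also differed in markers of other cells. Of 22 stellate cell and fibroblast markers 10 were lower by the same test, against 2.79% of all genes tested. The summed level of the 22 was 2339, 3540 and 3748 CPM in f/f against 1528, 1168 and 1710 CPM in ECKO. The 14 LSEC markers summed to 27219 to 31492 CPM in f/f and 30459 to 35427 CPM in ECKO. Of them 1, Pecam1, rose (log2FC 0.51, adjusted p = 0.0456), against 1.24% of all genes. DESeq2 called 18 of the stellate markers lower and 4 of the LSEC markers higher (7.58% and 3.43% of all genes). Limma-voom called 7 and 0 (1.39% and 0.847%). Mitochondrial genes took 11.5% to 23.5% of counts in f/f and 19.7% to 32.4% in ECKO. The part of these differences in the results below was not tested. In bulk RNA, fewer cells of a type and less RNA per cell cannot be told apart.

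Promoter sequence was available from RefSeq (GRCm38.p6) for 31 of the 57 members, 3 of them among those that fell. Those 3 are shown because they are all the members that fell for which a window was at hand. Each is the 250 bases before the RefSeq start, 5′ to 3′ on the gene's strand, and capitals mark the SMAD box CAGAC, the AP-1 motif TGANTCA and the TEAD motif GGAATG on either strand.
Adamts2, chr11:50601835-50602084, plus strand: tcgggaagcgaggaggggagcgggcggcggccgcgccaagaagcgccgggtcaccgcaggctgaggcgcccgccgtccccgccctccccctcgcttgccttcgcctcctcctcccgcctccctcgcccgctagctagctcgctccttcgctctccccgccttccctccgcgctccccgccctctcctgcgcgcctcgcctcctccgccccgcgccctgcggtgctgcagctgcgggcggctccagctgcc
Adamts14, chr10:61273420-61273669, minus strand: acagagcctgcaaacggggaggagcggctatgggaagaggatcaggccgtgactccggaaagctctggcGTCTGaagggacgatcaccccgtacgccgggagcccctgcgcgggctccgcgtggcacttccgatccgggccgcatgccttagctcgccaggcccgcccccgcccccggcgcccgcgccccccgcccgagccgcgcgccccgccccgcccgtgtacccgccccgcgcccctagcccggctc
Adamts13, chr2:26973166-26973415, plus strand: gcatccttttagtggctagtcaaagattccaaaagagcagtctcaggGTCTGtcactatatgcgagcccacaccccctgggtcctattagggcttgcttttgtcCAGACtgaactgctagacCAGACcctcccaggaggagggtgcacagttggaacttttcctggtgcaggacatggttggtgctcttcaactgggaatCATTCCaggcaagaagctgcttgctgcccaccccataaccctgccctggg
The SMAD box stood 3 times in the Adamts13 window, 1 time in that of Adamts14 and 0 times in that of Adamts2. It was in 42.2% of all 32851 promoter windows of this length and in 17 of the 33 member windows. The AP-1 motif was in none of the 3, in 6.75% of all windows and in 4 member windows. The TEAD motif stood 1 time in the Adamts13 window, and it was in 12.6% of all windows and in 2 member windows. The GC box GGGCGG, not capitalised, stood 5 times before Adamts2, 6 times before Adamts14 and 0 times before Adamts13, and it was in 32.7% of all windows and in 15 member windows. GC content was 78.0%, 76.4% and 54.0% for Adamts2, Adamts14 and Adamts13. No hits of the 3 capitalised motifs overlapped. None of these 4 motifs was in all 3 windows.

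Compared per gene length, Adamts1 was the most abundant member, at 182 ± 115 FPKM in f/f and 63.4 ± 25.1 FPKM in ECKO (mean ± SD, n = 3 each). ADAMTS1 is a secreted protease of versican and aggrecan that also limits angiogenesis. Next came Adam10 (28.8 ± 2.72 and 23.2 ± 4.33 FPKM), Adam23 (27.0 ± 2.20 and 22.1 ± 4.13 FPKM) and Adam9 (23.4 ± 4.23 and 19.1 ± 3.86 FPKM). FPKM carry no TMM correction, so the f/f and ECKO means here do not give the change. With TMM the log2FCs of Adam10, Adam23 and Adam9 were -0.08, -0.04 and -0.05. The f/f ranges of these 3 overlapped one another, so their order is not separated by the spread. Adam15 (16.3 ± 4.33 FPKM in f/f) and Adamts10 (14.3 ± 2.11 FPKM) overlapped too, and both lay above Adam17 (8.33 ± 0.971 FPKM), Adamts7 (7.26 ± 0.453 FPKM) and Adam19 (7.02 ± 1.21 FPKM) in every f/f library. Adam12, the member with the smallest p, was among the scarce ones at 1.42 ± 0.139 FPKM in f/f and 0.308 ± 0.0375 FPKM in ECKO. Adamts1 alone made up 66.0%, 27.3% and 49.99% of the family's summed FPKM in f/f replicates 1 to 3 and 31.7%, 26.7% and 41.4% in ECKO replicates 1 to 3.

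**Figure D1:**
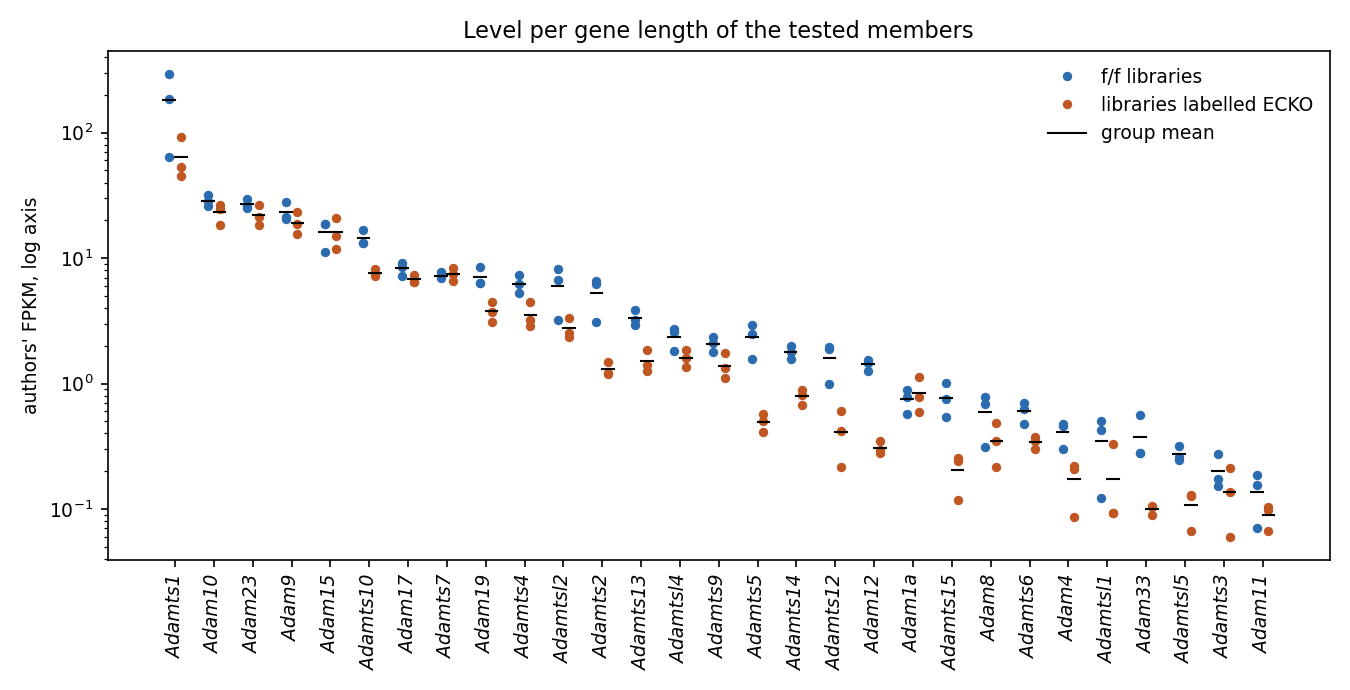
Authors' FPKM (log axis) of the 29 tested members in each library, ordered by the mean over all 6; blue points are f/f libraries, orange points are libraries labelled ECKO and bars are group means. Adamts1 lies above the other members, and its f/f libraries spread from 64.3 to 294 FPKM.

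Across the family 7 of the 29 tested members fell in the libraries labelled ECKO, 0 rose and 22 did not pass (edgeR quasi-likelihood test, adjusted p below 0.05 over 13692 genes). The members that fell were Adam12, Adam33, Adamts2, Adamts5, Adamts10, Adamts13 and Adamts14. Among all genes tested, 2.79% were lower and 1.24% higher by this rule. No member was higher in DESeq2 or limma-voom either, and 1, Adamts7, was higher at an unadjusted p under 0.05. The median log2FC was -0.66 over the tested members and 0.01 over all genes, and 26 of the 29 were below 0. All 3 f/f libraries lay above all 3 ECKO libraries for 14 members, against 15.2% of all genes, and the reverse held for 1 member, against 15.7%. Leaving out f/f replicate 1 gave 9 members that fell (5.47% of all genes lower), and leaving out f/f replicates 2 and 3 gave 4 (1.29%) and 3 (0.397%). For ECKO replicates 1, 2 and 3 in turn the counts were 1 (0.149%), 2 (0.819%) and 3 (0.469%). DESeq2 called 11 members lower (7.58% of all genes lower, 3.43% higher) and limma-voom 4 (1.39% and 0.847%). At an unadjusted p under 0.05, 13 members were lower and 1 higher, against 13.1% and 10.4% of all genes. Under total count scaling, which moved the median of all genes to -0.22, 11 members fell (8.83% of all genes lower, 0.460% higher) and the members' median was -0.90. Upper quartile scaling gave 8 (2.70% of all genes lower, 1.02% higher), no filter 10 of 41 (2.51% and 1.11%), and a filter of 50 counts in 3 libraries 7 of 25 (3.09%). On log2(FPKM + 0.1) and log2(FPKM + 1) the count was 9 each (3.70% and 3.08% of all genes lower). These values are scaled to library total, and the median of all genes moved to -0.22 and -0.14. With the replicate number as a block the count was 5 (2.08%). Leaving out f/f replicate 1 gave 1.76% of all genes higher.

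**Figure D2:**
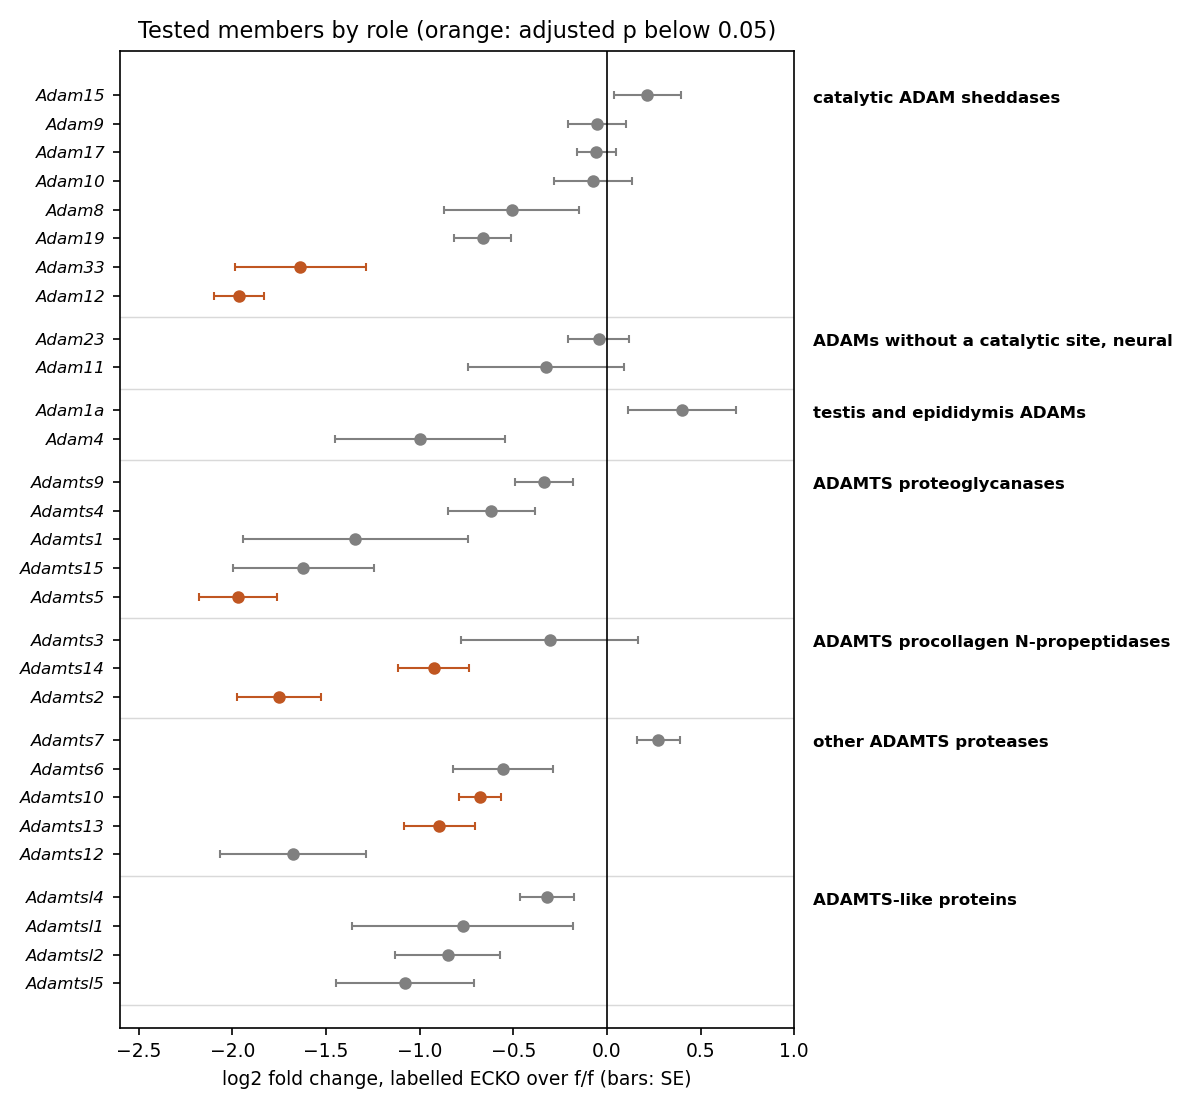
Log2 fold change of ECKO over f/f with its SE for the 29 tested members, grouped by role; orange marks adjusted p below 0.05. The 7 orange members lie between -1.97 and -0.68, and Adam15, Adam1a and Adamts7 are the 3 above 0.

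Among the 8 tested ADAMs that carry a working protease, Adam12 and Adam33 fell and 6 did not pass, against 2.79% of all genes lower. The median of the 8 was -0.29. Adam12 (ENSMUSG00000054555, chromosome 7, 133883199 to 134232146, minus strand, mm10/GRCm38) held 17.6, 16.8 and 17.5 CPM in f/f and 4.46, 4.65 and 4.19 CPM in ECKO. Both groups were tight and lay far apart, with a fitted level 3.90 times higher in f/f (log2FC -1.96, SE 0.14, adjusted p = 0.00294). Its counts were 420, 342 and 423 against 67, 80 and 73. Adam12 passed without each library in turn (adjusted p 0.00199 to 0.0335). Adam19 and Adam33 encode its closest relatives in sequence. Adam33 (ENSMUSG00000027318, chromosome 2, 131050591 to 131063814, minus strand), a protease of mesenchymal cells, held 3.43, 5.70 and 2.82 CPM in f/f and 1.46, 1.046 and 1.32 CPM in ECKO (log2FC -1.64, SE 0.35, adjusted p = 0.0469). The f/f libraries differed among themselves by more than the ECKO libraries, and no ECKO library reached the lowest f/f value. This call was the nearest to the threshold. Without f/f replicate 1 it passed (0.0401), and without any other library it did not (0.0971 to 0.130). It was also lost in limma-voom (0.0824) and on log2(FPKM + 0.1) and log2(FPKM + 1) (0.0873 and 0.114). Adam19, which sheds neuregulin, lay just outside the threshold at 49.5, 40.6 and 54.1 CPM in f/f and 27.8, 27.5 and 35.7 CPM in ECKO (log2FC -0.66, SE 0.15, adjusted p = 0.0560). Its groups did not overlap either, and DESeq2 called it lower (0.00466). The annotation places antisense transcripts over 8.25% and 6.75% of its exonic bases, and the strand setting of the counting is not stated.

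The broadly expressed sheddases overlapped between the groups. Adam10, the main protease that starts Notch signalling, held 206, 141 and 154 CPM in f/f and 200, 153 and 123 CPM in ECKO (log2FC -0.08, SE 0.21, adjusted p = 0.849). Adam17, the TNF-alpha converting enzyme, held 82.2, 80.1 and 85.4 CPM in f/f and 84.3, 69.7 and 84.3 CPM in ECKO (log2FC -0.06, SE 0.11, adjusted p = 0.777). Its f/f libraries were within a narrow range that also held ECKO replicates 1 and 3. Adam9, a sheddase of EGF-family ligands, held 122, 104 and 138 CPM in f/f and 106, 104 and 140 CPM in ECKO (log2FC -0.05, SE 0.16, adjusted p = 0.860). Adam15, an ADAM with an integrin-binding RGD motif in humans, held 128, 176 and 177 CPM in f/f and 155, 228 and 176 CPM in ECKO (log2FC 0.22, SE 0.18, adjusted p = 0.501), and under total count scaling the value was -0.025. An antisense gene covers 20.6% of Adam15's exonic bases. Adam8, a leukocyte sheddase, held 2.09, 4.37 and 3.77 CPM against 1.66, 3.08 and 2.41 CPM (adjusted p = 0.427). Adam28 had 0 counts in all 6 libraries, where 3 counts, the upper limit that a 0 allows, equal 0.124 to 0.1997 CPM depending on the library. Summed, the proteolytic ADAMs came to 569 to 631 CPM in f/f and 567 to 592 CPM in ECKO.

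None of the 2 tested ADAMs that lack a catalytic site and are best known from neurons passed, and neither had an unadjusted p under 0.05 in edgeR or a call in DESeq2 or limma-voom. ADAM23 binds integrins and the LGI proteins of synapses. Adam23 (ENSMUSG00000025964, chromosome 1, 63445891 to 63596276, plus strand) held 551, 533 and 477 CPM in f/f and 533, 385 and 595 CPM in ECKO (log2FC -0.04, SE 0.16, adjusted p = 0.890). Its lowest and its highest library were both in the ECKO group. Adam11 held 0.711, 1.28 and 1.53 CPM against 1.198, 0.930 and 0.688 CPM (adjusted p = 0.666). Adam22 had 15 counts in all and was not tested.

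Of 21 ADAM genes best known from testis and epididymis, 15 had 0 counts in every library and 2 passed the filter. Neither of these passed the test in edgeR, DESeq2 or limma-voom, and 0 had an unadjusted p under 0.05. Adam4 held 0.795, 1.03 and 0.994 CPM in f/f and 0.666, 0.523 and 0.229 CPM in ECKO (log2FC -0.996, SE 0.45, adjusted p = 0.234). Adam1a, a sperm fertilin subunit in its known role, held 2.09, 2.70 and 2.36 CPM against 3.26, 3.95 and 2.24 CPM (log2FC 0.40, SE 0.29, adjusted p = 0.432). The exons of other genes cover up to 63.7% of the exonic bases of Adam1a, so its counts are uncertain. Adam21 had 4, 2 and 3 counts in f/f and 0, 2 and 0 in ECKO, and was not tested.

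Of 5 tested proteoglycanases, the ADAMTS enzymes that cut versican and aggrecan, Adamts5 fell and 4 did not pass, against 2.79% of all genes lower. The median of the 5 was -1.34. Adamts5 (ENSMUSG00000022894, chromosome 16, 85858170 to 85901125, minus strand) held 13.3, 17.3 and 20.6 CPM in f/f and 3.99, 4.07 and 4.99 CPM in ECKO (log2FC -1.97, SE 0.21, adjusted p = 0.00938). Each f/f library was above each ECKO library, by 3.91 times in the fitted means. The call was lost without ECKO replicate 1 (adjusted p = 0.0509) and held without each of the other libraries (0.00250 to 0.0370). Adamts15 held 3.35, 5.21 and 3.85 CPM in f/f and 1.73, 0.697 and 1.61 CPM in ECKO (log2FC -1.62, SE 0.38, adjusted p = 0.0583). The fit lacking f/f replicate 1 passed (0.0437), as did that in DESeq2 (0.00184). On log2(FPKM + 0.1), where the median of all genes was -0.22, Adamts15 passed too (0.0412). Adamts4, an inducible aggrecanase, held 39.2, 23.3 and 27.7 CPM against 17.6, 16.4 and 24.8 CPM (log2FC -0.62, SE 0.23, adjusted p = 0.166), with overlap at ECKO replicate 3. Adamts9, a versican protease also needed for cilia, held 32.6, 32.2 and 35.3 CPM against 23.2, 23.1 and 32.9 CPM (adjusted p = 0.237). Adamts8 and Adamts20 had 6 and 2 counts in all.

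Adamts1 (ENSMUSG00000022893, chromosome 16, 85793827 to 85803113, minus strand), the neighbour of Adamts5 on chromosome 16, varied most of the tested members among the f/f libraries. Its level was 1947, 352 and 1018 CPM in f/f and 400, 285 and 623 CPM in ECKO (log2FC -1.34, SE 0.60, adjusted p = 0.238). The groups overlapped, since f/f replicate 2 lay below ECKO replicates 1 and 3. The fitted level was 2.54 times higher in f/f, while the f/f libraries themselves ran from 352 to 1947 CPM. Without f/f replicate 1 the log2FC was -0.64, and without f/f replicate 2 it was -1.77, neither passing (adjusted p = 0.507 and 0.0957). Its SD between f/f libraries was 1.24 on the log2 scale, against a median of 0.21 over the tested members. Among ECKO libraries its SD of 0.56 was below those of Adamtsl1 (0.81) and Adamts12 (0.68). A list of 10 immediate early genes, fast-responding genes such as Fos and Egr1 that react to handling, was added after the values of Adamts1 had been seen. They summed to 11625, 3760 and 11131 CPM in f/f and 5996, 5906 and 7866 CPM in ECKO. In that sum and in Adamts1, f/f replicate 2 was the lowest f/f library and ECKO replicate 3 the highest ECKO library. They parted in f/f replicates 1 and 3, at 11625 and 11131 CPM in the sum and 1947 and 1018 CPM in Adamts1. Of the 10 genes 1 was lower by the test (2.79% of all genes), and DESeq2 called 2 lower (7.58%). All 10 had a log2FC below 0, against 48.6% of all genes. The part of these genes in the Adamts1 spread was not tested.

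**Figure D3:**
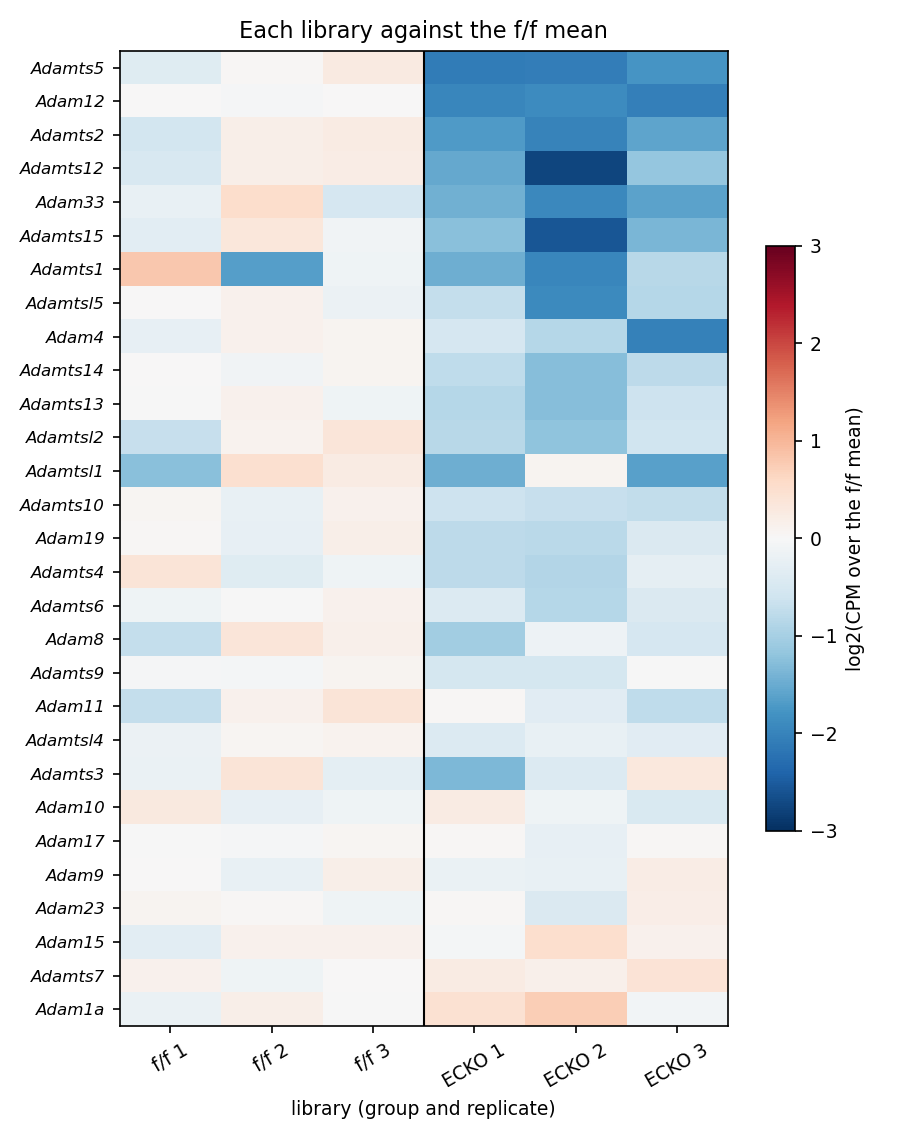
Log2 of each library's CPM over the f/f mean for the 29 tested members (rows, ordered by fold change) in the 6 libraries (columns). Red is above and blue below the f/f mean; Adam12 is even within each group, while Adamts1 ranges from 352 to 1947 CPM among f/f libraries.

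All 3 procollagen N-propeptidases, which cut the amino-terminal propeptide off fibrillar procollagens, were tested, and 2 fell, against 2.79% of all genes. Adamts2 (ENSMUSG00000036545, chromosome 11, 50602084 to 50807573, plus strand), the main such enzyme for types I and III, held 31.6, 51.5 and 54.8 CPM in f/f and 14.0, 11.5 and 15.4 CPM in ECKO (log2FC -1.75, SE 0.23, adjusted p = 0.0129). The lowest f/f library, replicate 1, was also the f/f library with the lowest summed stellate markers (2339 CPM). Of the other members that fell, only Adamts5 was lowest in that f/f library. Adam12, Adamts10 and Adamts14 were lowest in f/f replicate 2, and Adam33 and Adamts13 in f/f replicate 3. The part of stellate cells was not tested. The Adamts2 call was lost without ECKO replicate 1 (0.0706) and ECKO replicate 2 (0.0512), and without f/f replicate 1 the adjusted p was 0.00194. Adamts14 (ENSMUSG00000059901, chromosome 10, 61197112 to 61273438, minus strand) held 9.83, 9.09 and 10.2 CPM in f/f and 5.73, 4.01 and 5.62 CPM in ECKO (log2FC -0.92, SE 0.19, adjusted p = 0.0416). The f/f libraries were tight and all above the ECKO libraries. Lacking f/f replicate 1 it passed (0.0498), and lacking each other library it missed (0.0796 to 0.154), as it did in limma-voom (0.0509). Adamts3, better known for activating the lymphatic growth factor VEGF-C, overlapped between the groups at 0.878, 1.33 and 0.828 CPM against 0.399, 0.755 and 1.26 CPM (adjusted p = 0.724). Bmp1, which cuts the other end of the same procollagens, fell in the same libraries from 21.0 ± 5.10 to 5.53 ± 0.556 CPM (log2FC -1.93, SE 0.21, adjusted p = 0.00938; 0.0509 without ECKO replicate 1). Pcolce, an enhancer of that cut, had an adjusted p of 0.163.

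Of the 5 tested ADAMTS proteases with other substrates, Adamts10 and Adamts13 fell and 3 did not pass, against 2.79% of all genes lower. Adamts10 (ENSMUSG00000024299, chromosome 17, 33524204 to 33553782, plus strand), which acts on fibrillin microfibrils, held 144, 119 and 152 CPM in f/f and 90.5, 85.5 and 83.1 CPM in ECKO (log2FC -0.68, SE 0.11, adjusted p = 0.0262). By FPKM it was the most abundant of the 7 that fell, and it showed the smallest change among them. The call was lost without f/f replicate 3 (0.115) and without ECKO replicates 1, 2 and 3 (0.0980, 0.0730 and 0.0973). Adamts13 (ENSMUSG00000014852, chromosome 2, 26973416 to 27009628, plus strand), whose promoter window is printed above, held 16.6, 18.4 and 15.2 CPM in f/f and 9.19, 6.86 and 10.9 CPM in ECKO (log2FC -0.90, SE 0.19, adjusted p = 0.0460). No library overlapped, and no 5-library fit kept the call (0.0531 to 0.129), nor did limma-voom (0.0535). Its substrate Vwf, von Willebrand factor, ranged from 269 to 793 CPM in f/f and from 448 to 1153 CPM in ECKO (adjusted p = 0.744). Adamts12 held 6.44, 10.2 and 10.5 CPM in f/f and 3.13, 1.34 and 4.01 CPM in ECKO (log2FC -1.67, SE 0.39, adjusted p = 0.0590), with no overlap, and it passed in DESeq2 (7.19e-04). Adamts7, which with Adamts12 cuts cartilage oligomeric matrix protein, ran the other way at 84.7, 70.5 and 77.8 CPM in f/f and 91.8, 86.4 and 104 CPM in ECKO (log2FC 0.28, SE 0.11, adjusted p = 0.193). It was the single tested member with all ECKO libraries above all f/f libraries in CPM. In FPKM its groups overlapped (6.98, 7.03 and 7.79 in f/f, 6.60, 7.47 and 8.37 in ECKO). Under total count scaling its log2FC was 0.042 (edgeR adjusted p = 0.903). Adamts6, a relative of Adamts10, held 2.43, 2.60 and 2.90 CPM against 2.00, 1.45 and 1.95 CPM (adjusted p = 0.255).

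**Figure D4:**
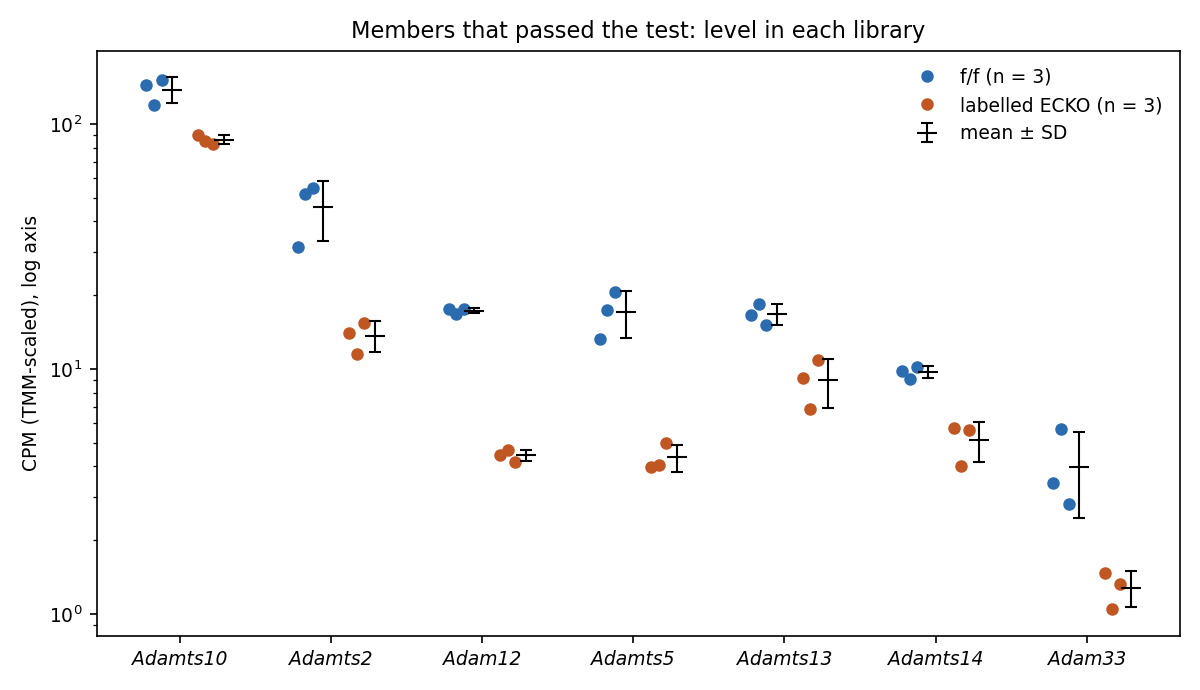
CPM (log axis) of the 7 members that fell, in each library, with mean ± SD (n = 3 per group); blue is f/f and orange is ECKO. In each member all f/f points lie above all ECKO points, with the widest relative gap in Adam12 and Adamts5.

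None of the 4 tested ADAMTS-like genes passed in edgeR, where 2 had an unadjusted p under 0.05; DESeq2 called 1 lower, Adamtsl2, and limma-voom 0. Their median was -0.81. Adamtsl2, which binds fibrillin and a latent TGF-beta binding protein, held 32.3, 55.9 and 67.1 CPM in f/f and 29.2, 22.5 and 34.4 CPM in ECKO (log2FC -0.85, SE 0.28, adjusted p = 0.132). The overlap came from f/f replicate 1, and without it the adjusted p was 0.0197. Adamtsl5 held 2.22, 2.41 and 1.95 CPM against 1.33, 0.581 and 1.204 CPM (log2FC -1.08, SE 0.37, adjusted p = 0.136). Adamtsl4, a fibrillin-binding protein of the fibres that hold the eye's lens, held 10.8, 12.7 and 13.3 CPM against 9.25, 10.5 and 9.69 CPM (adjusted p = 0.231), again with no overlap. Adamtsl1 varied within both groups, at 2.01, 6.73 and 5.67 CPM against 1.73, 5.11 and 1.55 CPM (adjusted p = 0.466). Adamtsl3 was too scarce to test, with 21, 19 and 10 counts in f/f and 1, 1 and 5 in ECKO. Thsd4, a relative whose symbol the rule does not take in, was looked up after the family's values had been seen, and it fell from 10.1 ± 3.78 to 3.43 ± 0.109 CPM (log2FC -1.55, adjusted p = 0.0314).

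The remaining members with 10 or more counts were not tested. Adamts16, with the most counts of these, had 9, 29 and 18 counts in f/f and 5, 5 and 9 in ECKO. Adamts17 had 11, 12 and 7 counts against 3, 4 and 2, and Adamts19 had 13 counts in all. In a fit with no filter on low counts none of the 6 scarce members passed. Adamtsl3 came nearest (log2FC -2.34, adjusted p = 0.108), and the other members had an adjusted p of 0.363 for Adamts16, 0.372 for Adamts17 and more for Adam21, Adam22 and Adamts19 (0.556, 0.828 and 0.776).

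Of 65 genes listed as inhibitors, regulators or substrates of these proteases, 57 were tested, 10 fell, 0 rose and 47 did not pass. The median was -0.30. Among all genes tested 2.79% were lower and 1.24% higher. At an unadjusted p under 0.05, 20 of the 57 were lower and 5 higher, against 13.1% and 10.4% of all genes. DESeq2 called 16 lower and 1 higher (7.58% and 3.43% of all genes), and limma-voom 8 and 0 (1.39% and 0.847%). Of the 4 tested inhibitors none passed in edgeR, DESeq2 or limma-voom, and 1 was higher at an unadjusted p under 0.05. Timp3, the inhibitor of ADAM17 and the aggrecanases, held 1714, 1439 and 1593 CPM in f/f and 2065, 1825 and 2025 CPM in ECKO (log2FC 0.32, SE 0.11, adjusted p = 0.1496). Its groups did not overlap in CPM, with ECKO above. Under total count scaling its log2FC was 0.080 (edgeR adjusted p = 0.806), and on log2(FPKM + 0.1) it was 0.082. Timp1 held 3.47, 11.7 and 5.59 CPM against 1.60, 4.94 and 2.06 CPM (log2FC -1.26, adjusted p = 0.236). None of 12 tested genes for the maturation and trafficking of ADAM10 and ADAM17 passed in these 3 tools, and 2 were lower and 1 higher at an unadjusted p under 0.05. Among them Tspan14, a tetraspanin partner of ADAM10, went from 153 ± 8.97 to 190 ± 8.77 CPM (log2FC 0.31, adjusted p = 0.106). Under total count scaling its log2FC was 0.067. Rhbdf2, a rhomboid-like partner of ADAM17, went from 42.2 ± 12.4 to 28.5 ± 4.65 CPM (adjusted p = 0.174). It passed as lower under total count scaling (edgeR adjusted p = 0.0353). Pofut2 and B3glct, which glycosylate thrombospondin repeats, had an adjusted p of 0.473 and 0.859, with 0 calls by the other tools and 0 at an unadjusted p under 0.05.

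Among 24 tested membrane substrates, Notch2 and Ereg fell and 22 did not pass, against 2.79% of all genes lower. DESeq2 called 7 of the 24 lower and 1 higher (7.58% and 3.43% of all genes). Limma-voom called 1 lower and 0 higher (1.39% and 0.847%). At an unadjusted p under 0.05 in edgeR the counts were 8 and 3 (13.1% and 10.4%). Notch2, a Notch receptor, fell from 19.4 ± 3.70 to 9.09 ± 1.77 CPM (log2FC -1.09, SE 0.20, adjusted p = 0.0314). Ereg, the EGF receptor ligand epiregulin, fell from 2.52 ± 0.661 to 0.589 ± 0.259 CPM (log2FC -2.09, SE 0.43, adjusted p = 0.0416). Without f/f replicate 1 Notch2 passed (0.0196), and without each other library it missed the threshold (up to 0.106). Ereg missed it without any 1 of the 6 (0.0548 to 0.112) and in limma-voom (0.0621).

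Among 11 tested matrix substrates 7 fell and 4 did not pass, with a median of -1.75, against 2.79% of all genes lower. DESeq2 called 8 lower (7.58% of all genes) and limma-voom 6 (1.39%). The 7 that fell in edgeR were Col1a1, Col1a2, Col3a1, Col5a1, Fbn1, Igfbp3 and Thbs1, and the first 3 are also on the stellate list. Thbs1, thrombospondin 1, fell from 48.8 ± 10.6 to 6.64 ± 2.02 CPM (log2FC -2.87, SE 0.27, adjusted p = 0.00853) and passed without each library in turn. Fbn1, the fibrillin that ADAMTS10 and ADAMTS-like proteins bind, held 50.5, 79.7 and 77.3 CPM in f/f and 30.4, 30.4 and 30.7 CPM in ECKO (log2FC -1.18, SE 0.17, adjusted p = 0.0178). The call was lost when f/f replicate 3 or any ECKO replicate was left out (up to 0.0830). Igfbp3, an insulin-like growth factor binding protein that ADAM12 cuts, fell from 59.1 ± 20.9 to 20.9 ± 1.16 CPM (adjusted p = 0.0314). Col1a1, Col1a2 and Col3a1, the procollagens trimmed by ADAMTS2, had log2FCs of -3.28, -2.70 and -2.64 (adjusted p = 0.0296, 0.0246 and 0.0314). These 3 and Igfbp3 passed without f/f replicate 1 and missed without each other library (up to 0.110). With no filter on low counts Col1a1, Col1a2 and Col3a1 missed the threshold (0.0792, 0.0532 and 0.0770), and in limma-voom Igfbp3 did (0.0616). Col5a1 fell by 2.05 on the log2 scale (adjusted p = 0.0101) and missed without ECKO replicate 1 (0.0592).

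Markers of other cells in the same libraries gave the values below, where 2.79% of all genes were lower and 1.24% higher in edgeR. The same shares were 7.58% and 3.43% in DESeq2 and 1.39% and 0.847% in limma-voom. At an unadjusted p under 0.05 in edgeR they were 13.1% and 10.4%. Of 7 mesothelial markers 2 fell, with summed levels of 55.2 to 112 CPM in f/f and 30.9 to 75.8 CPM in ECKO. Of 5 tested B and plasma cell markers 3 fell (sums 7.90 to 21.4 and 2.21 to 3.73 CPM), and of 3 tested neutrophil markers 1 fell (13.4 to 25.4 and 0.697 to 5.06 CPM), with Ly6g at 0 counts throughout. DESeq2 called 4 mesothelial, 4 B and plasma cell and 2 neutrophil markers lower, and limma-voom called 0 in each of the 3 lists, where 5, 5 and 3 had an unadjusted p under 0.05 in edgeR. No marker of Kupffer cells (5 tested), monocytes (3), T and NK cells (1), hepatocytes (6), cholangiocytes (6) or vascular smooth muscle (4) passed in edgeR. At an unadjusted p under 0.05 these lists held 2, 1, 0, 2, 5 and 0 markers. DESeq2 called 1, 1, 0, 2, 4 and 0, and limma-voom called none of them. In both counts the hepatocyte markers were higher in ECKO, and the monocyte and cholangiocyte markers were lower. Of the 2 Kupffer cell markers 1 was lower and 1 higher, and the 1 that DESeq2 called was higher. Cholangiocyte markers summed to 214 to 603 CPM in f/f and 140 to 189 CPM in ECKO, and smooth muscle markers to 10.4 to 41.5 and 5.05 to 35.1 CPM. Among the stellate markers that fell, Dcn went from 705 to 346 CPM, Reln from 212 to 92.6 CPM and Tcf21 from 35.9 to 8.75 CPM on average, so none was at 0. The part of any of these lists in the members' values was not tested.

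Only Adam12 of the 7 members that fell kept its call without any 1 of the 6 libraries, as the plot of adjusted p values shows. Adamts5 kept it in 5 of these fits, Adamts2 in 4, Adamts10 in 2, Adam33 and Adamts14 in 1 each and Adamts13 in 0. Each f/f library lay above each ECKO library in all 7, so leaving out any 1 could not test the direction, which stayed negative.

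**Figure D5:**
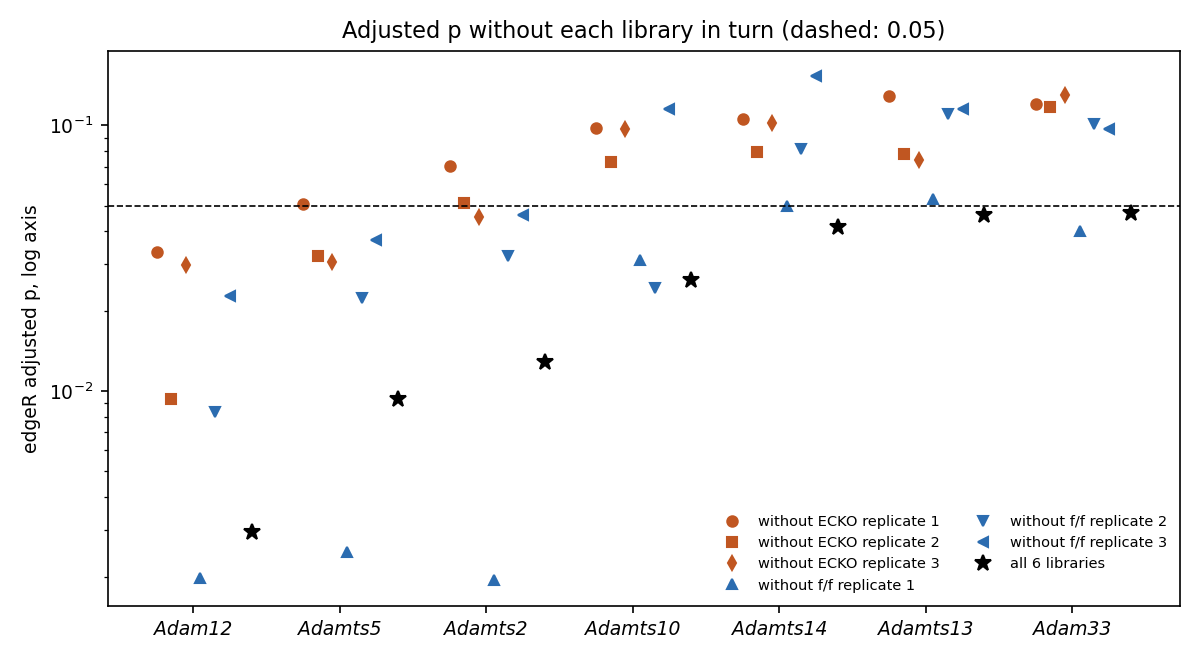
Adjusted p (log axis) of the 7 members that fell, without each library in turn (blue: an f/f library left out; orange: an ECKO library left out) and with all 6 (stars); the dashed line is 0.05. Adam12 stays under the line throughout (largest value 0.0335), while Adamts13 rises above it in every 5-library fit.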

How the data were processed

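mRNA libraries were made from total RNA, per the labels' protocols. HISAT2 2.0.4, StringTie 1.3.0, mm10 and GRCm38.p4 appear in the submitters' processing notes without a stated role. How reads were counted, and with which annotation and strand setting, the sources used here do not give. The table deposited by the authors has raw counts and FPKM for each gene, per the file headers. FPKM is the count over gene length and library total, here to within a relative difference of 3.43e-06 between 2 libraries.

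Counts were fitted over the whole table in R 4.3.3 with edgeR 4.0.16 (filterByExpr with minimum count 10 and minimum total 15, TMM, robust quasi-likelihood F-test, genotype as the only term, two-sided, Benjamini-Hochberg adjustment over 13692 genes, threshold 0.05). SE is the absolute log2 fold change over the square root of F. Alternatives used DESeq2 1.42.0, limma 3.58.1, other scalings, filters and FPKM with pseudocounts of 0.1 and 1. With 3 libraries against 3, an exact permutation p for a single value cannot go below 0.1. A 0 allows up to 3 counts, which covers counting error only. Exon overlaps came from GENCODE vM21 (GRCm38).

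The members, role lists, pathway lists and cell type markers were chosen with earlier results of these data known. Named genes were the members that passed, in each role the 3 with the highest FPKM and the 2 with the smallest p, the 3 untested members with most counts, and in each pathway list the genes that passed and the 2 with the smallest p. Adam8, Adam17, Adam19, Adam28, Adamts6, Adamts8, Adamts12, Adamts19, Adamts20, Thsd4, Vwf, Dcn, Reln, Tcf21, Pecam1 and the other genes outside that rule were chosen after their values were seen. All 6 libraries and both sets of columns were used.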

Additional observations from a re-analysis of the deposited data

How the results depend on the processing

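The count of members that fell, 7 of 29 (2.79% of all genes lower), was 11 with DESeq2 (7.58%) and 11 under total count scaling (8.83%). It was 4 with limma-voom (1.39%), and 1 to 9 when single libraries were left out (0.149% to 5.47%). Each of these kept between 1 and 7 of the 7 calls, and DESeq2 and total count scaling kept all 7, while limma-voom lost Adam33, Adamts13 and Adamts14. It stayed within 1.5 times of 7 with upper quartile scaling (8), no filter (10 of 41), a filter of 50 counts in 3 libraries (7 of 25), log2(FPKM + 0.1) and log2(FPKM + 1) (9 each, of which 6 were among the 7, Adam33 being lost). With the replicate block it was 5, of which 4 were among the 7; Adam33, Adamts13 and Adamts14 missed (0.0765, 0.0727 and 0.0572). The count of pathway genes that fell, 10 of 57 (2.79% of all genes lower), was 16 with DESeq2 (7.58%) and under total count scaling (8.83%). It was 6 with the replicate block (2.08%). With single libraries left out it ran from 1 of 59 without ECKO replicate 1 (0.149%) to 15 of 59 without f/f replicate 1 (5.47%). The block lost the calls of Col1a1, Col3a1, Ereg, Igfbp3 and Notch2 (0.0520 to 0.0655) and added Timp1 (log2 fold change -1.27, adjusted p = 0.0446). No filter lost Col1a1, Col1a2 and Col3a1, and limma-voom lost Ereg and Igfbp3. The count of pathway genes that rose, 0 (1.24% of all genes higher), was 1 with DESeq2 (3.43%) and upper quartile scaling (1.02%). It was also 1 with no filter (1.11%) and without f/f replicate 1 (1.76%). The labels do not say whether a shared replicate number is a shared animal, litter or day. Deviations of same-numbered libraries correlated at 0.10, 0.16 and -0.03, and those of the other pairs at -0.16 to 0.10. With 3 libraries per group these values cannot decide whether the libraries are paired. Signs turned in genes that never passed. Under total count scaling, log2(FPKM + 0.1) and log2(FPKM + 1), Adam15 gave -0.025, -0.025 and -0.024 and Pofut2 -0.11, -0.12 and -0.11. With single libraries left out, Adam9 ran from -0.20 to 0.055, Adam10 from -0.27 to 0.11, Adam23 from -0.17 to 0.12, Adamts3 from -0.78 to 0.010 and B3glct from -0.14 to 0.066. The cause was not tested. No filter added Adam19, Adamts12 and Adamts15 and called none of the 6 scarce members with 11 to 75 counts, where depth limits what can be seen.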
